A study of Homo sapiens with 6 samples.

Results

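Immediate early and early response genes are the genes that a cell transcribes within minutes to a few hours of a growth factor, a neural signal or an injury, from factors it already holds. The set described here has 41 genes, named by symbol, of the 36601 genes in the deposited tables. It holds 7 subunits of the AP-1 transcription factor (FOS, FOSB, FOSL1, FOSL2, JUN, JUNB and JUND), 4 EGR zinc finger factors, 4 KLF factors, 3 NR4A nuclear receptors, and MYC, NPAS4 and SRF. The others are 5 DUSP phosphatases, 4 regulators of RNA decay and of growth arrest (BTG1, BTG2, ZFP36 and ZFP36L1), 3 IER genes, 3 stress and survival genes (MCL1, GADD45B and SGK1), and 5 secreted, cytoskeletal or synaptic effectors (HBEGF, CCN1, CCN2, RHOB and ARC).

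Such genes are switched on by MAP kinases acting through SRF with its ETS partners and through CREB, and their products drive a second wave of transcription. The DUSP phosphatases and ZFP36, themselves members, then switch off the kinases and destroy the short-lived transcripts, so that a response to a single stimulus is brief. In the retina, Müller glia are known for AP-1 and EGR1 induction after injury, and neurons for induction of FOS, ARC and NPAS4 by activity.

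Fragments of human retinal organoids were profiled cell by cell with a droplet method that counts UMIs, the tags that mark single captured transcripts at their 3′ end. The organoids were made from 1 line, WA09 CRX-tdTomato, a human embryonic stem cell line with a reporter for the photoreceptor factor CRX, and were between day 113 and day 126. The transplanted group (n = 3) had been triturated, placed under the retina of normal dogs and collected after 3 days. The cultured group (n = 3) came from the same organoid batches, was triturated in the same way and stayed in culture for the same 3 days. Each of the 3 Sets was a separate experiment with 1 sample of each group, and the comparison asks how the genes differ between graft and culture within a Set, in each of 4 cell classes. Both groups share the trituration and, per the labels, the enzymatic dissociation before capture. Only the grafts were first recovered from a dog eye, so effects of that recovery and of the graft itself cannot be told apart. No sample was taken before trituration.

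The transplanted samples held 6850189 to 45281930 UMIs and the cultured samples 8000032 to 108222149 UMIs, and 43757 cells were kept in all. A kept cell was a rod with at least 3 NRL UMIs, a cone with at least 3 PDE6H UMIs and more PDE6H than NRL, a Müller glial cell with at least 3 UMIs of HES5, WIF1 and TTYH1 together, and an amacrine cell with at least 2 UMIs of TFAP2A and TFAP2B together. In all, 17547 cells met 1 rule only and 6979 met at least 2. Cells with at least 2 rules made up 19.3% to 32.8% of the cells with any rule in transplanted samples and 13.3% to 29.8% in cultured samples, and they were left out of the main comparison because such a barcode may hold RNA of 2 cells. Rods numbered 1084, 143 and 1183 in transplanted Sets 1, 2 and 3, against 1930, 2643 and 323 in cultured Sets 1, 2 and 3. Müller glia numbered 1654, 25 and 117 in the transplanted samples, against 3605, 496 and 31 in the cultured samples. The part of dog cells in the transplanted classes was not tested. A host filter, used as an alternative, kept cells whose UMI share in genes named by a clone number reached the 1st percentile of cultured cells of their Set. It left 1633, 18 and 50 transplanted Müller glia, against 3583, 489 and 31 cultured ones. Transplanted cones of Set 3 went from 127 to 93 under it. Cones were compared in Sets 1 and 3 (562 and 127 transplanted cells, 1693 and 80 cultured cells) and amacrine cells in Sets 2 and 3 (28 and 189 transplanted cells, 841 and 185 cultured cells), since the remaining Set had under 20 transplanted cells of the class.

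Markers outside the rules fitted the rods and Müller glia in part. In the rod class the rod factor NR2E3 stood at 174, 449 and 399.9 counts-per-million (CPM, of all UMIs summed over the class) in transplanted samples and at 121, 225 and 244 CPM in cultured samples, while rhodopsin, the pigment of mature rods, was at or below 0.982 CPM in each. The Müller glia carried SOX2, DKK3 and RLBP1, and part of them held UMIs of the division genes TOP2A or MKI67. Without such cells, 1354, 22 and 102 of 1654, 25 and 117 transplanted cells remained in Sets 1, 2 and 3. Of 3605, 496 and 31 cultured cells, 1911, 366 and 23 remained. A larger part was thus lost from the cultured sample in each Set, while summed markers of dividing progenitors shared no direction. The class is better read as Müller glia with dividing cells among them. The amacrine class also carried horizontal cell markers, summing to 2112 and 2250 CPM in transplanted Sets 2 and 3 and to 1761 and 2712 CPM in cultured Sets 2 and 3, so it is better read as cells with TFAP2A or TFAP2B. A change in a class sum can come from many cells or from few, and from the kind of cell that meets the rule, so fewer cells of a type and less RNA per cell cannot be told apart in it.

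Most of the calls in the set were in rods, the class with the most genes called in all. JUN, JUNB, DUSP1, DUSP2, DUSP5, BTG2 and KLF4 rose, and FOSL1, ZFP36L1 and CCN1 fell, in transplanted rods. These are 7 and 3 of the 39 members that could be tested, where 1.58% of all 15860 genes tested rose and 2.58% fell (edgeR quasi-likelihood test with the Set as a block, Benjamini-Hochberg adjusted p under 0.05). FOS itself and EGR1, the members most often used as readouts of cell activation, did not pass the test in rods. In Müller glia 1 of 39 members rose (IER3) and 1 fell (NR4A3), against 0.224% and 0.26% of all 13835 genes tested. No member passed in cones or in amacrine cells. The map of responses gives each member in each class.

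**Figure D1:**
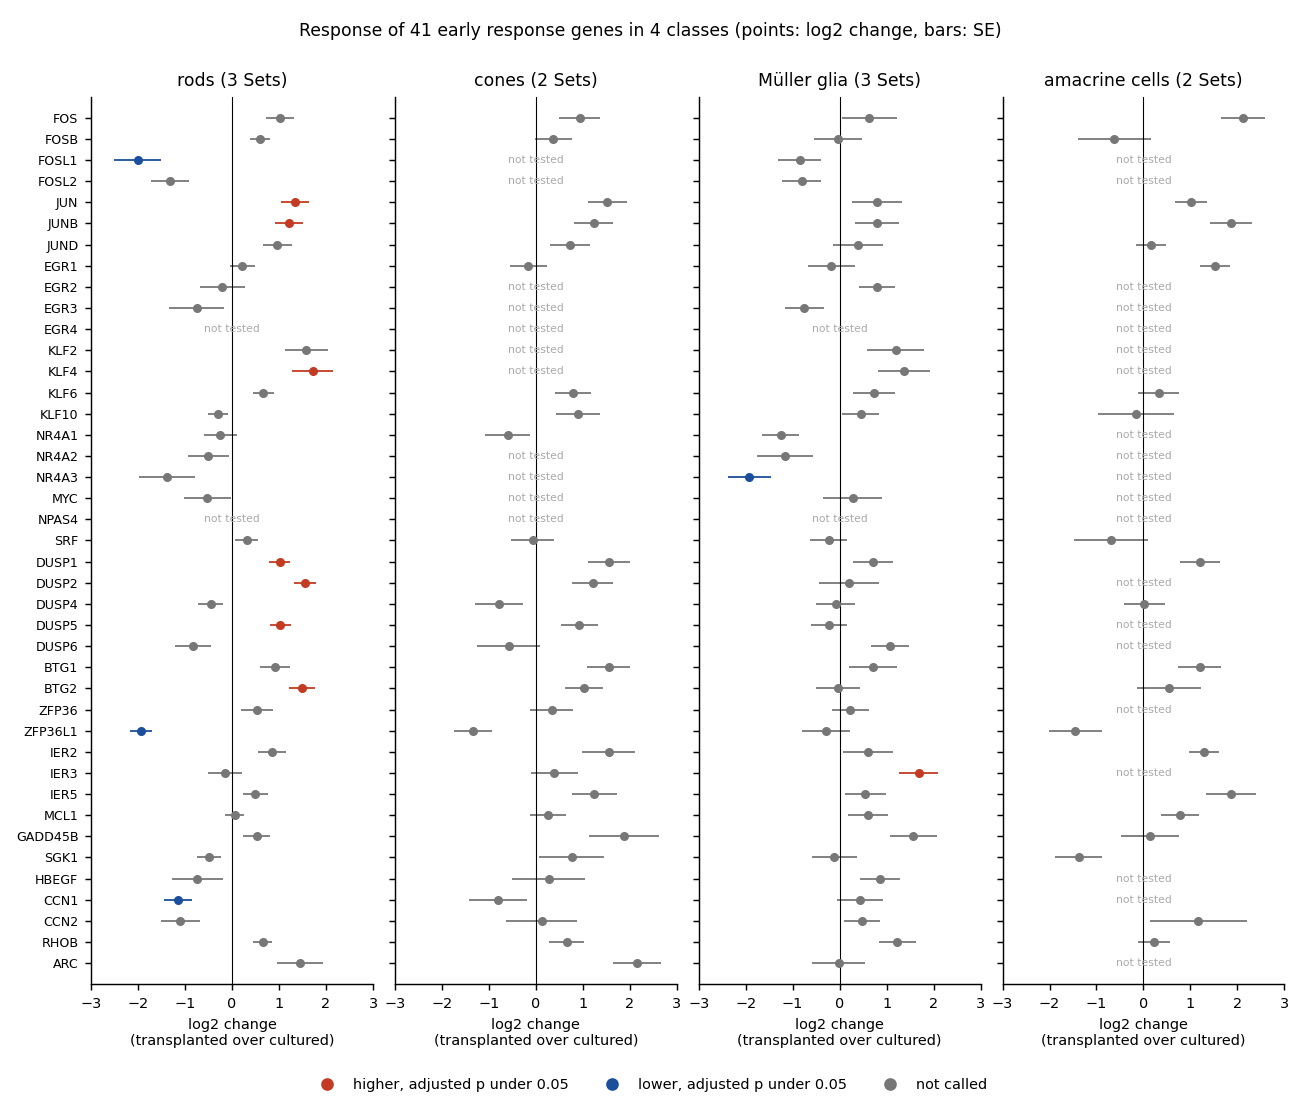
Log2 change (transplanted over cultured, within Sets) with its standard error for the 41 members in rods, cones, Müller glia and amacrine cells. Red marks are members that rose and blue marks members that fell at an adjusted p under 0.05, and grey marks did not pass. Rods hold 7 red and 3 blue marks, Müller glia 1 of each, and cones and amacrine cells none.

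The 39 tested members had a median log2 change of 0.31 in rods, against -0.04 over all genes tested, with 22 members above 0 and 17 below, where 46.8% of all genes were above. At an unadjusted p under 0.05, 16 members lay above and 7 below, against 7.57% and 10.7% of all genes tested. Transplanted and cultured samples did not overlap for 10 tested members in CPM, 7 with all transplanted samples above and 3 with all below, where 4.03% and 5.05% of all genes tested did so. EGR4 and NPAS4 were too low to test in rods and in Müller glia. Members of 1 family moved in opposite directions, as JUN and FOSL1 did.

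In the GENCODE v29 annotation of GRCh38, the members that rose in rods lie at chr1:58780788-58784327 (JUN), chr19:12791496-12793315 (JUNB), chr5:172768090-172771195 (DUSP1), chr2:96143166-96145440 (DUSP2), chr10:110497838-110511544 (DUSP5), chr1:203305491-203309602 (BTG2) and chr9:107484852-107490482 (KLF4). Those that fell lie at chr11:65892049-65900573 (FOSL1), chr14:68787660-68796253 (ZFP36L1) and chr1:85580761-85583962 (CCN1). IER3 lies at chr6:30743199-30744554 and NR4A3 at chr9:99821855-99866891. The counts are per gene, so they do not say which transcript or exon was captured.

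Among the AP-1 subunits, JUN, which pairs with FOS proteins to bind DNA, had 834, 600.0 and 578 CPM in transplanted rods of Sets 1, 2 and 3, against 300.2, 289 and 236 CPM in cultured rods. The groups did not overlap, and the lowest transplanted sample stood well above the highest cultured one. Its log2 change was 1.34 ± 0.29 (SE), a fold of 2.53 (edgeR adjusted p = 0.0155). JUNB, a JUN relative that restrains JUN in many cells, had 318, 298 and 140.4 CPM in transplanted rods, against 203, 71.5 and 82.4 CPM in cultured rods. It was higher in the transplanted sample of 3 of 3 Sets, although cultured Set 1 exceeded transplanted Set 3 (log2 change 1.22 ± 0.30, edgeR adjusted p = 0.0288). FOSL1, a FOS relative that lacks the activation domain of FOS, went the other way, at 0.491, 1.76 and 3.94 CPM in transplanted rods, against 8.40, 8.64 and 8.85 CPM in cultured rods. Those levels rest on 2, 2 and 39 UMIs in transplanted rods and on 54, 177 and 16 UMIs in cultured rods, with no overlap (log2 change -2.01 ± 0.51, edgeR adjusted p = 0.0342). Without Set 1 the adjusted p was 0.122 for JUN and 0.369 for FOSL1, and without Set 2 it was 0.231 for JUNB.

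FOS had 941, 440.5 and 276 CPM in transplanted rods, against 570.0, 164 and 169 CPM in cultured rods. It stood higher in the transplanted sample of each Set, but it missed the threshold (log2 change 1.02 ± 0.30, edgeR adjusted p = 0.0696). It passed with DESeq2 (adjusted p = 0.00468) and without Set 3 (edgeR adjusted p = 0.00288). JUND (log2 change 0.96 ± 0.31, adjusted p = 0.0976), FOSB (0.59 ± 0.21, adjusted p = 0.145) and FOSL2 (-1.32 ± 0.40, adjusted p = 0.0742) missed it as well in the edgeR test. FOSL2 was low throughout, at 2.73 to 3.52 CPM in transplanted rods and 6.54 to 8.29 CPM in cultured rods, which do not overlap.

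EGR1, a zinc finger factor induced by the same kinases as FOS, had 215, 137 and 101 CPM in transplanted rods, against 214, 69.9 and 140.4 CPM in cultured rods. The groups overlapped widely and the Sets differed in sign (log2 change 0.22 ± 0.27, edgeR adjusted p = 0.724). EGR2 and EGR3 were at or below 9.18 CPM in each sample of rods and did not pass. KLF4, a zinc finger factor known for its part in reprogramming, rose from a low level: it had 10.1, 3.52 and 6.16 CPM in transplanted rods, against 2.49, 1.42 and 2.21 CPM in cultured rods. Transplanted Set 2 held 4 UMIs of it and cultured Set 3 held 4, so the separation of the groups rests on few molecules (log2 change 1.72 ± 0.44, edgeR adjusted p = 0.0362, and 0.407 without Set 1). Its relative KLF2 had 8.60, 6.17 and 3.73 CPM in transplanted rods, against 2.49, 1.76 and 2.21 CPM in cultured rods, with no overlap, and missed the threshold (log2 change 1.58 ± 0.45, edgeR adjusted p = 0.0619). KLF6 (0.67 ± 0.22) and KLF10 (-0.30 ± 0.21) did not pass, nor did NR4A1, NR4A2, NR4A3, MYC and SRF, whose log2 changes lay between -1.38 (NR4A3) and 0.31 (SRF).

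Of the 5 phosphatases that remove phosphate from MAP kinases, 3 rose in rods. DUSP2, which acts on kinases in the nucleus, had 107, 101 and 61.9 CPM in transplanted rods, against 49.3, 25.3 and 23.8 CPM in cultured rods. The groups did not overlap, and the fold was 2.92 (log2 change 1.55 ± 0.23, edgeR adjusted p = 0.00177). DUSP5, a nuclear phosphatase of ERK, had 87.9, 78.4 and 73.9 CPM in transplanted rods, against 44.5, 48.3 and 31.0 CPM in cultured rods, again with no overlap (log2 change 1.03 ± 0.22, edgeR adjusted p = 0.0128). DUSP1, which acts mainly on the stress kinases p38 and JNK, had 219, 159 and 83.1 CPM in transplanted rods, against 93.0, 87.1 and 49.8 CPM in cultured rods. It was higher in each Set, although transplanted Set 3 lay below cultured Sets 1 and 2 (log2 change 1.01 ± 0.22, edgeR adjusted p = 0.0156). Without Set 1 the adjusted p was 0.00699 for DUSP2, 0.117 for DUSP5 and 0.181 for DUSP1. DUSP4 (-0.45 ± 0.27, adjusted p = 0.398) and DUSP6, the cytoplasmic phosphatase of ERK (-0.84 ± 0.39, adjusted p = 0.258), pointed down and did not pass in edgeR.

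**Figure D2:**
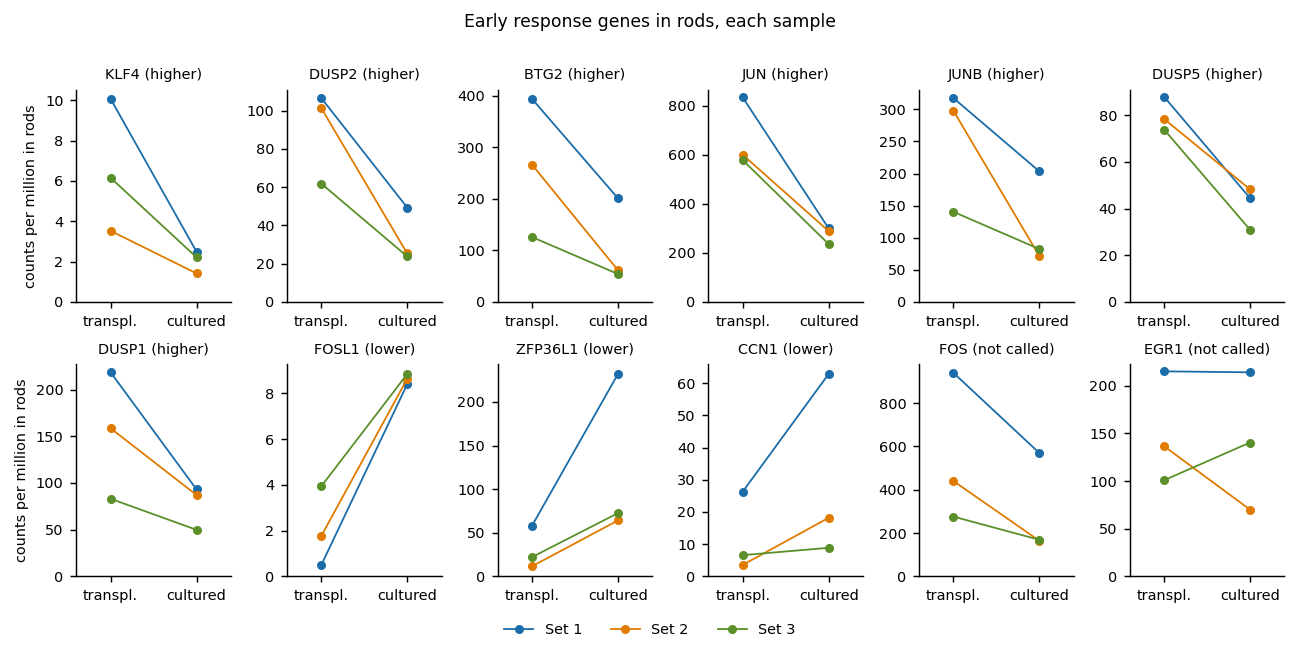
CPM in the rods of each sample for the 10 members that passed the test in rods and for FOS and EGR1, with transplanted samples on the left, cultured samples on the right and a line joining the samples of a Set. JUN, DUSP2, DUSP5 and KLF4 lie higher in transplanted rods with no overlap, FOSL1 and ZFP36L1 lie lower with no overlap, and the 3 lines of EGR1 do not share a direction.

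BTG2, an antiproliferative gene that p53 can induce, had 393, 266 and 126 CPM in transplanted rods, against 201, 61.5 and 54.2 CPM in cultured rods. It was higher in each Set, while transplanted Set 3 lay below cultured Set 1 (log2 change 1.49 ± 0.28, edgeR adjusted p = 0.00729). Its relative BTG1 showed a log2 change of 0.91 ± 0.31 and missed the threshold (edgeR adjusted p = 0.121). ZFP36L1, which binds AU-rich elements and leads transcripts to decay, had 58.0, 11.5 and 22 CPM in transplanted rods, against 232, 64.0 and 72.4 CPM in cultured rods. It fell in each Set with no overlap (log2 change -1.94 ± 0.24, edgeR adjusted p = 0.000491), whereas its relative ZFP36 did not pass (0.54 ± 0.34, adjusted p = 0.442). DUSP2, BTG2 and ZFP36L1 were the 3 members that passed in edgeR without each Set in turn.

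Of the remaining members, CCN1, a secreted matrix protein and a target of YAP and SRF, had 26.3, 3.52 and 6.56 CPM in transplanted rods, against 62.9, 18.2 and 8.85 CPM in cultured rods. It was lower in each Set, with overlapping groups (log2 change -1.16 ± 0.30, edgeR adjusted p = 0.0378), and did not pass without Set 1 (adjusted p = 0.49) or without Set 2 (0.0597). RHOB, a small GTPase of the cytoskeleton, had 94.1, 67.8 and 74.5 CPM in transplanted rods, against 55.5, 49.7 and 51.4 CPM in cultured rods, apart but short of the threshold (log2 change 0.65 ± 0.20, edgeR adjusted p = 0.0858). ARC (1.45 ± 0.49), IER2 (0.86 ± 0.30), IER5 (0.49 ± 0.27), GADD45B (0.52 ± 0.29), MCL1 (0.06 ± 0.20), IER3 (-0.14 ± 0.36), SGK1 (-0.50 ± 0.25), HBEGF (-0.74 ± 0.55) and CCN2 (-1.10 ± 0.42) did not pass either. Effectors that act outside the cell or on its skeleton thus gave no common direction in rods.

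Several measures moved with the groups in rods beside these genes. The median share of mitochondrial UMIs was 4.22%, 3.87% and 3.26% in transplanted rods of Sets 1, 2 and 3, against 1.65%, 2.76% and 1.06% in cultured rods. With cells limited to 5% mitochondrial UMIs, 7 members rose and 3 fell in rods, as without this limit, against 1.59% and 2.5% of all genes. The 8 Müller glia markers that check the class summed to 528, 207 and 175 CPM in transplanted rods, against 893, 271 and 422 CPM in cultured rods, and markers of dividing progenitors to 102, 40.5 and 57.8 CPM in transplanted rods, against 467, 98.9 and 122 CPM in cultured rods. Horizontal cell markers summed to 69.0, 36.1 and 51.5 CPM in transplanted rods, against 226, 143 and 174 CPM in cultured rods, and cone markers to 365, 492 and 566 CPM in transplanted rods, against 490.0, 901 and 1108 CPM in cultured rods. Mural cell or fibroblast markers summed to 7.93 to 18.7 CPM in transplanted rods, against 16.03 to 45.6 CPM in cultured rods, and pigment epithelium markers to 7.93 to 39.0 CPM in transplanted rods, against 14.9 to 47.0 CPM in cultured rods. All 6 sums were lower in the transplanted rods of each Set. Rod markers summed to 622, 1394 and 1333 CPM in transplanted rods, against 615, 993 and 804 CPM in cultured rods. Amacrine cell markers summed to 385, 858 and 735 CPM in transplanted rods, against 384, 773 and 604 CPM in cultured rods. Both were higher in the transplanted rods of each Set, by little in Set 1. ZFP36L1 averaged 398 ± 95.1 CPM in transplanted Müller glia and 536 ± 102 CPM in cultured Müller glia (SD, n = 3 each), and CCN1 averaged 207 ± 70.9 CPM in transplanted and 169 ± 86.9 CPM in cultured Müller glia, above their levels in rods. The part that RNA of these other cell types in the rod class plays in the changes of the members was not tested. Myeloid markers summed to at most 6.26 CPM and hemoglobin genes to at most 2.02 CPM in rods. The 6 T and NK cell markers summed to 10.8, 26.4 and 23.7 CPM in transplanted rods, against 3.42, 8.35 and 2.76 CPM in cultured rods. TRAC made up nearly all of it, while CD3D, CD2 and NKG7 were at 0 in each transplanted sample of rods.

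Without the Set as a block, 0 members passed in rods and 0 in each other class, with 7 members in rods at an unadjusted p under 0.05 against 23 with it. The calls are therefore about the change within a Set, in 3 Sets.

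Per cell, JUN was found in more transplanted rods. After thinning each rod to 1000 UMIs, 51.8%, 37.4% and 34.9% of transplanted rods in Sets 1, 2 and 3 had a JUN UMI, against 24.1%, 22.6% and 19.7% of cultured rods, and the groups did not overlap. Unthinned, the shares were 80.6%, 76.2% and 75.3% in transplanted rods, against 50.2%, 62.8% and 52.3% in cultured rods, at median depths of 3055.5, 5285 and 5028 UMIs in transplanted rods and 2746.5, 5156 and 3602 UMIs in cultured rods. DUSP2 was found in 9.0%, 7.68% and 5.66% of thinned transplanted rods, against 5.0%, 2.74% and 2.07% of thinned cultured rods. As a gauge of free RNA, the rod gene NR2E3 was found in 0.443%, 1.19% and 4.24% of thinned transplanted Müller glia, against 0.709%, 0.824% and 4.41% of thinned cultured Müller glia. This gauge gives no background share for JUN, which Müller glia hold at 389.6 to 869 CPM themselves. The cultured DUSP2 share in Set 3 lies below the gauge, so no difference in the DUSP2 shares is read there. In thinned Müller glia of Set 1, DUSP2 was found in 0.767% of transplanted cells and 0.636% of cultured cells.

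The windows around the starts of the genes were read because 7 members moved together in rods. RefSeq (GRCh38.p14) gave the bases from 250 before to 50 after a transcription start for 30 of the 41 members, in 38 windows. The search covered both strands for the CREB and ATF site TGACGTCA and its core TGACG, which is part of it and reads CGTCA on the other strand, the JUN site TGACATCA, the AP-1 site TGANTCA and the CArG box, the site of SRF. Shown here are the 150 bases before the start, 5′ to 3′ on the gene's strand with every match in capitals, for the phosphatase with the full CREB site, for a JUN gene that rose with the core alone, for the phosphatase that rose most and has no match, and for EGR1, which did not pass.
DUSP1: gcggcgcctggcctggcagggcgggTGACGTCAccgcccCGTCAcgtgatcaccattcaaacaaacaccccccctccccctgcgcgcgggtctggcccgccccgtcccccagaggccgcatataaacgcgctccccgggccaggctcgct
JUNB: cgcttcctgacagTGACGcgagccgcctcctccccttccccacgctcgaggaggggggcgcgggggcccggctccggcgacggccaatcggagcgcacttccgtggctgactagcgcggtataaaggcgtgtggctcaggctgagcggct
DUSP2: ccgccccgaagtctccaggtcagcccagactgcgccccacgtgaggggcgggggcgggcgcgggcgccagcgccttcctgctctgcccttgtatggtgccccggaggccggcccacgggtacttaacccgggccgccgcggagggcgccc
EGR1: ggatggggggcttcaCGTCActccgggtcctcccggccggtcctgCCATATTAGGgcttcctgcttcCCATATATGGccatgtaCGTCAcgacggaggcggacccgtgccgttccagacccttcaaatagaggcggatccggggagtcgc
They lie at chr5:172771196-172771345 (minus strand), chr19:12791336-12791485 (plus strand), chr2:96145441-96145590 (minus strand) and chr5:138465329-138465478 (plus strand). DUSP1 carried TGACGTCA from -125 to -118 before the start and a further core from -111, JUNB carried a core from -137, and EGR1 carried cores from -135 and -66 with CArG boxes from -105 and -83. JUN carried TGACATCA from -67 to -60.

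The core TGACG was in 55.263% of the 38 member windows and in 24.553% of all 35116 RefSeq windows of this length, and the full TGACGTCA in 7.895% and 1.848%. The CArG box was in 7.895% of member windows and 1.293% of all windows, TGACATCA in 5.263% and 2.614%, and TGANTCA in 2.632% and 7.709%. The 1 member match of TGANTCA, in FOSL2, lies after the start. Of the 7 members that rose in rods, 6 had a window and 5 of those held the core. Of the 3 that fell, ZFP36L1 had a window and held it, and of the 29 tested members that did not pass, 21 had a window and 11 held it. The core thus occurs in members that rose, fell and did not pass alike, and a match is a description of letters, not of binding.

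In cones, over Sets 1 and 3, no member passed the edgeR test with the Set as a block. At an unadjusted p under 0.05 there were 12 members above and 1 below, of 30 tested, where 4.35% of all 12084 genes tested were above and 5.42% below. DESeq2 called 3 members (JUN, BTG1 and IER2). The median log2 change was 0.74 over the tested members and -0.03 over all genes, with 23 members above 0 (47.7% of all genes). In CPM 11 tested members were apart with the transplanted samples above and 0 with them below, against 11.7% and 8.72% of all genes. In all, 10 genes rose (0.0828%) and 16 fell (0.132%). JUN had 595 and 520.4 CPM in transplanted cones of Sets 1 and 3, against 198 and 184 CPM in cultured cones, a separation like that in rods (log2 change 1.52 ± 0.42, edgeR adjusted p = 0.126). ARC, a synaptic gene induced by activity, had 20.2 and 25.3 CPM in transplanted cones, against 5.02 and 3.38 CPM in cultured cones (log2 change 2.15 ± 0.51, edgeR adjusted p = 0.0719). DUSP1 had 92.8 and 50.5 CPM in transplanted cones, against 43.1 and 6.75 CPM in cultured cones (log2 change 1.56 ± 0.44, edgeR adjusted p = 0.139). FOS overlapped between the groups, at 532 and 265 CPM in transplanted cones and 374 and 96.2 CPM in cultured cones, and EGR1 had a log2 change of -0.16 ± 0.40. Cone markers summed to 684 and 839.7 CPM in transplanted cones of Sets 1 and 3, against 966 and 1957 CPM in cultured cones. Rod markers summed to 112 and 193 CPM in transplanted cones, against 69.0 and 113 CPM in cultured cones, and Müller glia markers to 395 and 152 CPM in transplanted cones, against 681 and 216 CPM in cultured cones. The median mitochondrial share was 4.27% and 2.99% in transplanted cones, against 1.61% and 1.79% in cultured cones. These moved in 1 direction in both Sets, and their part in the cone changes was not tested. Where cones of Set 2 were added, with 13 transplanted cells, 3 members rose (ARC, GADD45B and KLF10) and ZFP36L1 fell, against 0.733% and 0.708% of all genes. With at most 5% mitochondrial UMIs per cell, 6 members rose and 1 fell in cones, against 0.874% and 0.892% of all genes.

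**Figure D3:**
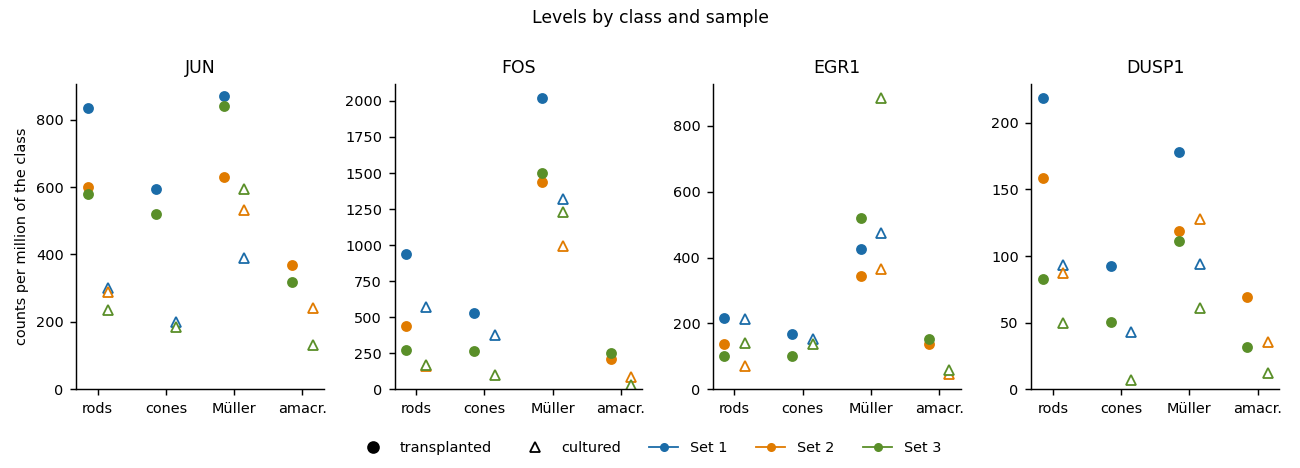
CPM of JUN, FOS, EGR1 and DUSP1 in each class and Set that was compared, on linear axes, with circles for transplanted samples, triangles for cultured samples and a colour for each Set. FOS and EGR1 stand highest in Müller glia in both groups, and the circles of JUN lie above the triangles of the same Set in each class.

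A few cells held much of the signal in transplanted cones of Set 3. GADD45B, a growth arrest and stress gene, had 46.9 and 490.5 CPM in transplanted cones of Sets 1 and 3, against 38.9 and 35.5 CPM in cultured cones, so that 1 sample stood far above the others. In that sample 15 of 127 cones (11.8%, exact 95% interval 6.76% to 18.7%, for counting error only) had 10 or more GADD45B UMIs, a threshold chosen after the values were seen. These cells held 11.6% of the UMIs of the class. Their 82.9% of its GADD45B follows from how they were picked. They also held 65.0% of the IER2 UMIs of the class, 61.8% of HBEGF, 61.5% of SGK1, 54.5% of ARC, 47.5% of JUNB and 44.6% of FOS. They held 16.8% of JUN and 18.2% of DUSP1 (8 of 44 UMIs), somewhat above their share of all UMIs. Their 5.36% of BTG2 (3 of 56 UMIs) lay below it. Over all kept cells, such cells were 0.474%, 2.45% and 3.53% of transplanted Sets 1, 2 and 3, against 0.0503%, 0.779% and 0.478% of cultured Sets 1, 2 and 3. They held 1.96%, 36.6% and 19.9% of the UMIs of kept cells in transplanted Sets 1, 2 and 3. In cultured Sets 1, 2 and 3 they held 0.052%, 2.75% and 0.335%. Such cells were thus deep in the transplanted samples and in cultured Set 2. In cultured Sets 1 and 3, and among the cones of transplanted Set 3, they were not. Without them the log2 change of GADD45B was 0.70 in cones (edgeR adjusted p = 0.609), against 1.87 with them (adjusted p = 0.436). That drop is favoured by leaving out cells picked for this gene. Rods kept 10 called members.

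**Figure D4:**
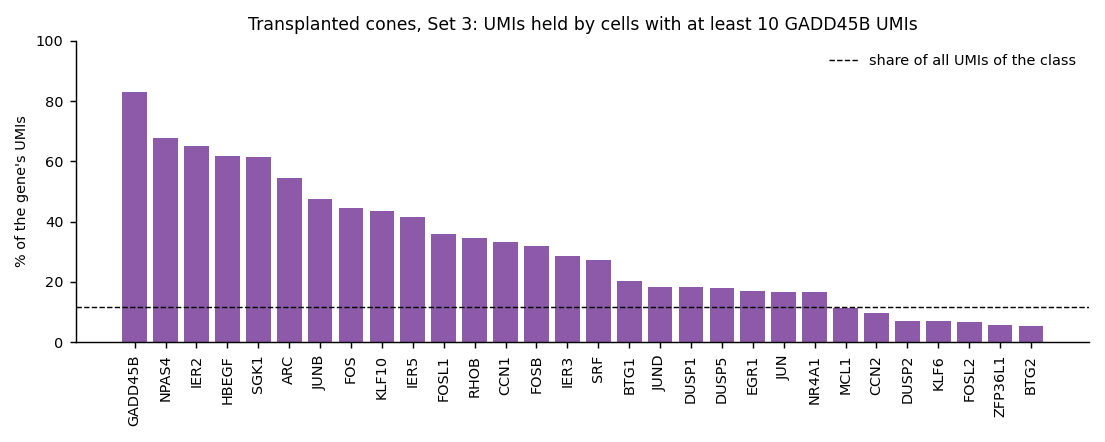
Bars give the share of the UMIs of each member in transplanted cones of Set 3 that lay in the 15 cells with 10 or more GADD45B UMIs, for members with at least 10 UMIs. The dashed line marks the 11.6% of all UMIs of the class in those cells. IER2 (65.0%) and HBEGF (61.8%) stand far above it while BTG2 (5.36%) stands below it. The bar of GADD45B (82.9%) is high because the cells were picked by that gene.

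Müller glia showed high levels in both groups and few changes. FOS had 2019, 1436 and 1503 CPM in transplanted Müller glia, against 1318, 991 and 1233 CPM in cultured Müller glia. These were the highest FOS levels of any class in the same samples, and the groups did not overlap, yet the test across Sets did not call it (log2 change 0.63 ± 0.58, edgeR adjusted p = 0.999). JUN had 869, 629 and 841 CPM in transplanted Müller glia, against 389.6, 531 and 593 CPM in cultured Müller glia, also apart and not called (0.80 ± 0.54, adjusted p = 0.931). EGR1 had 427, 344 and 520.3 CPM in transplanted Müller glia, against 475, 365 and 886 CPM in cultured Müller glia, and was lower in each Set without passing (-0.18 ± 0.50, adjusted p = 0.999). Few cells stood behind some of these values: transplanted Set 2 had 25 cells and 151148 UMIs, and cultured Set 3 had 31 cells and 146769 UMIs.

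IER3, which is known to protect against cell death and to act on ERK signalling, rose in Müller glia. It had 76.5, 152 and 142 CPM in transplanted Müller glia, against 53.5, 33.6 and 13.6 CPM in cultured Müller glia, with no overlap (log2 change 1.68 ± 0.41, edgeR adjusted p = 0.0336). The value of cultured Set 3 rests on 2 UMIs. NR4A3, an orphan nuclear receptor, fell: it had 1.17, 0 and 20.4 CPM in transplanted Müller glia, against 1.81, 71.2 and 157 CPM in cultured Müller glia. Those rest on 14, 0 and 23 UMIs in transplanted and 28, 339 and 23 UMIs in cultured Müller glia, and the groups overlap through Set 1 (log2 change -1.92 ± 0.46, edgeR adjusted p = 0.0342). Neither passed when any 1 Set was left out, with adjusted p of 0.157, 0.458 and 0.134 for IER3 and 0.152, 0.274 and 0.251 for NR4A3 without Sets 1, 2 and 3. With DESeq2 the adjusted p was 0.483 for IER3 and 0.709 for NR4A3. Under the host filter, which left Sets 1 and 3, IER3 was called and NR4A3 was not. Its relative NR4A1 pointed the same way (-1.26 ± 0.39, edgeR adjusted p = 0.149). Markers of neurogenic precursors summed to 323, 99.2 and 40.7 CPM in transplanted Müller glia, against 763, 258 and 245 CPM in cultured Müller glia, and cone markers to 32.9, 79.4 and 119 CPM in transplanted Müller glia, against 91.4, 146 and 416 CPM in cultured Müller glia. Bipolar cell markers summed to 17.7, 59.5 and 47.8 CPM in transplanted Müller glia, against 29.6, 107 and 252 CPM in cultured Müller glia, while mural cell or fibroblast markers summed to 142, 238 and 134 CPM in transplanted Müller glia, against 105, 173 and 88.6 CPM in cultured Müller glia. The first 3 sums were lower and the last higher in the transplanted sample of each Set, and their part in the results was not tested. Markers of dividing progenitors summed to 369, 92.6 and 457 CPM in transplanted Müller glia, against 1320, 873 and 279 CPM in cultured Müller glia, with no shared direction, and without cells with TOP2A or MKI67 UMIs 2 members were again called.

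Over the 39 tested members in Müller glia, 7 lay above and 2 below at an unadjusted p under 0.05, against 2.52% and 4.39% of all genes tested, and 24 lay above 0 with a median log2 change of 0.43 (50.2% and 0.00 over all genes). In CPM 7 members were apart with the transplanted samples above and 1 with them below, against 2.67% and 4.21% of all genes. RHOB (1.22 ± 0.40, edgeR adjusted p = 0.196), GADD45B (1.57 ± 0.50, adjusted p = 0.218) and DUSP6 (1.07 ± 0.40, adjusted p = 0.373) were among the higher ones. GADD45B dropped to 0.41 without the cells with 10 or more of its UMIs, a drop that picking cells by this gene favours. DUSP2 and BTG2, which rose in rods, had log2 changes of 0.20 ± 0.65 and -0.03 ± 0.48 in Müller glia. DUSP2 was also 1 of the lowest members there, at 0 to 6.10 CPM in transplanted and 0 to 5.88 CPM in cultured Müller glia.

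In amacrine cells, over Sets 2 and 3, 0 of 21 tested members passed, and so did 0 of all 11007 genes tested (0.0% in either direction), with 487 genes at an unadjusted p under 0.05 in edgeR and 1 gene called by DESeq2. At an unadjusted p under 0.05, 8 members lay above and 2 below, against 1.75% and 2.67% of all genes. FOS had 209 and 251 CPM in transplanted amacrine cells of Sets 2 and 3, against 85.4 and 31.8 CPM in cultured amacrine cells (log2 change 2.12 ± 0.47, edgeR adjusted p = 0.925). EGR1 had 139 and 152 CPM in transplanted amacrine cells, against 47.1 and 59.6 CPM in cultured amacrine cells (1.52 ± 0.32, adjusted p = 0.925). Both were apart between the groups in these 2 Sets, and JUNB (1.86 ± 0.45), IER5 (1.86 ± 0.54), IER2 (1.28 ± 0.32) and JUN (1.01 ± 0.34) lay above 0 as well. In CPM 7 members were apart with the transplanted samples above and 3 with them below, against 13.8% and 18.3% of all genes, and 16 of 21 lay above 0, against 49.2%. The other 20 members were too low to test, DUSP2, DUSP5 and KLF4 among them.

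Whether a member responded differently in 2 classes was tested directly in 1 fit over the 4 classes, with each sample as a block and 6 pairs of classes. In rods minus Müller glia, 10 of the 41 members differed, where 2.98% of 17175 genes did. BTG2 (difference of log2 changes 1.36 ± 0.27, edgeR adjusted p = 9.1e-05) and DUSP5 (1.19 ± 0.35, adjusted p = 0.0261) responded more in rods. ZFP36L1 (-1.75 ± 0.28, adjusted p = 4.1e-07), CCN1 (-1.68 ± 0.32), HBEGF (-2.71 ± 0.55), IER3 (-1.70 ± 0.36), CCN2 (-1.82 ± 0.44), DUSP6 (-2.02 ± 0.46), FOSL1 (-2.63 ± 0.73) and GADD45B (-1.04 ± 0.29) had the lower response in rods. In cones minus Müller glia, CCN1 (-1.84 ± 0.40) and ZFP36L1 (-1.34 ± 0.35) differed, with a background of 1.41% of genes. SGK1 differed in cones minus amacrine cells (2.77 ± 0.65, background 0.169%), and EGR1 in Müller glia minus amacrine cells (-1.56 ± 0.36, background 0.408%). No member differed between rods and cones (background 0.064%) or between rods and amacrine cells (background 0.349%) in this edgeR fit. These 14 differences are conditional: none passed when cells of 2 rules were kept, when the block was dropped, or when the class by Set terms were dropped, and DESeq2 called 2.

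**Figure D5:**
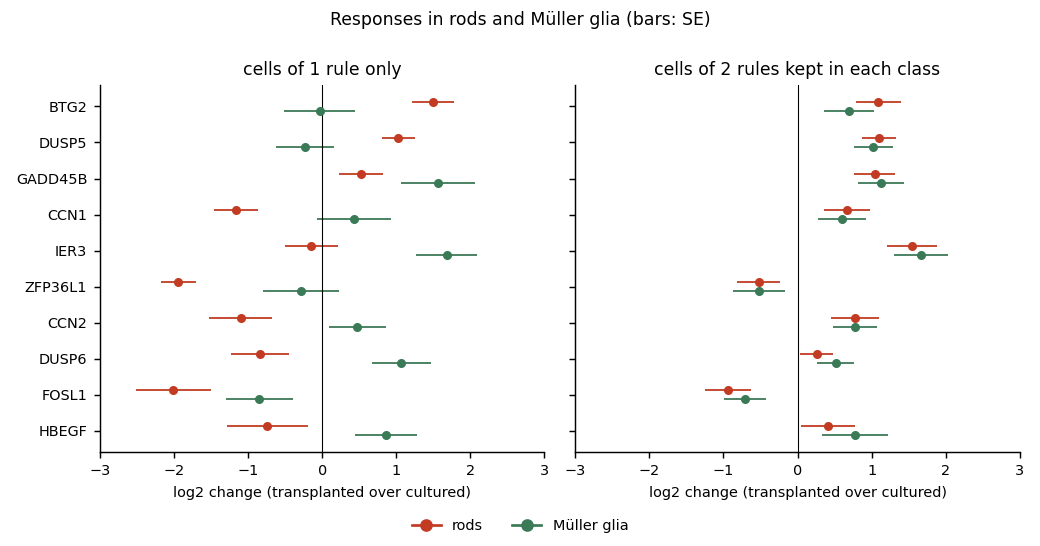
Log2 change in rods and in Müller glia for the 10 members whose response differed between them, with cells of 1 rule only on the left and cells of 2 rules kept on the right. Points are log2 changes and bars their SE. On the left CCN1, CCN2, HBEGF, IER3, DUSP6, GADD45B, FOSL1 and ZFP36L1 lie higher in Müller glia and BTG2 and DUSP5 higher in rods, and on the right rods and Müller glia lie close together for each.

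Taking the class rules literally, with cells of 2 rules counted in both classes, changed which members passed and brought the classes closer, as cells then count in several classes at once. All 3 Sets entered each class. Rods then had 8 members that rose (JUN, RHOB, DUSP1, DUSP2, DUSP5, IER3, ARC and KLF4) and 1 that fell (NR4A3), against 1.96% and 2.04% of all genes. Müller glia had 6 that rose (RHOB, DUSP1, DUSP2, DUSP5, IER3 and KLF4) and NR4A3 that fell, against 1.37% and 1.51%. Amacrine cells had 7 that rose (JUN, JUNB, BTG2, DUSP1, DUSP2, DUSP5 and ZFP36), against 1.34%, and cones had DUSP2, against 0.206%. ZFP36L1 (log2 change -0.52 ± 0.29, adjusted p = 0.358), FOSL1 (-0.94 ± 0.31, adjusted p = 0.107), BTG2 (1.09 ± 0.30, adjusted p = 0.0626) and JUNB (1.35 ± 0.36, adjusted p = 0.051) no longer passed the edgeR test in rods, and CCN1 turned to 0.67 ± 0.31 (adjusted p = 0.267).

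DUSP2 was the member that rose in each of the 4 classes under the literal rules. It had 69.8, 84.8 and 48.8 CPM in transplanted rods, against 34.3, 15.9 and 19.9 CPM in cultured rods (log2 change 1.74 ± 0.28, edgeR adjusted p = 0.00602). In cones it had 66.3, 31.3 and 35.3 CPM in transplanted samples, against 24.4, 10.1 and 12.4 CPM in cultured samples (1.56 ± 0.25, adjusted p = 0.0179). In Müller glia it had 33.0, 76.2 and 41 CPM in transplanted samples, against 17.4, 11.4 and 13.7 CPM in cultured samples (1.95 ± 0.33, adjusted p = 0.00614). In amacrine cells it had 65.8, 79.0 and 26.4 CPM in transplanted samples, against 12, 8.92 and 8.52 CPM in cultured samples (2.77 ± 0.33, adjusted p = 0.000119). Transplanted and cultured samples did not overlap in any class. In cells of 1 rule DUSP2 was low outside the photoreceptors, so its level in Müller glia and amacrine cells under the literal rules comes with the cells that also meet another rule.

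Genes around the set were read as whole lists. Of 30 other rapid response genes, 28 were tested in rods, and 4 rose and 3 fell, where 1.58% of all genes tested rose and 2.58% fell. CEBPD, an acute phase transcription factor, had 194, 182 and 98.2 CPM in transplanted rods, against 77.5, 35.6 and 12.2 CPM in cultured rods, with no overlap (log2 change 2.19 ± 0.31, edgeR adjusted p = 0.00126). NFKBIA, the inhibitor of NF-kappa-B (1.19 ± 0.24, adjusted p = 0.0105), NFKBIZ (1.4 ± 0.31, adjusted p = 0.0192) and SOCS3, the brake on STAT3 signalling (1.81 ± 0.41, adjusted p = 0.0281), rose too in the edgeR test. HES1, a target of Notch kept on in glia and progenitors (-1.89 ± 0.28, adjusted p = 0.00169), PHLDA1 (-1.26 ± 0.25, adjusted p = 0.00842) and TRIB1 (-0.88 ± 0.23, adjusted p = 0.0414) fell. CEBPD also rose in Müller glia (1.52, edgeR adjusted p = 0.043), 1 of 29 tested there, where 0.224% of all genes rose. No gene of this list passed in cones (24 tested) or amacrine cells (15 tested).

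In 5 lists of the signalling routes that feed the set and of other targets of those routes, 8 of 68 tested genes fell in rods and 0 rose, where 2.58% of all genes tested fell and 1.58% rose. Of the MAP kinase cascade (19 genes, 19 tested in rods) EGFR (-1.74 ± 0.35) and the ETS factor ELK3 (-1.19 ± 0.27) fell. Of the ERK feedback genes and ETS targets (13 tested) ETV5 fell in rods (-1.08 ± 0.29), while SPRY1, an inhibitor of receptor tyrosine kinase signalling, rose in Müller glia, with 103, 152 and 127 CPM in transplanted samples, against 31.0, 24.4 and 75.0 CPM in cultured samples (1.90 ± 0.38, edgeR adjusted p = 0.00418). Of the SRF and MRTF targets (11 tested) TAGLN (-2.36 ± 0.46) and VCL (-0.86 ± 0.21) fell in rods. Of the CREB route and the activity-dependent neuronal genes (13 tested) VGF (-2.45 ± 0.26) and HOMER1 (-0.97 ± 0.24) fell, and of the AP-1 partners of the ATF and MAF families (12 tested) MAF fell (-1.22 ± 0.27). No gene of these lists passed in cones or amacrine cells, and SPRY1 was the 1 that passed in Müller glia.

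Of 12 heat shock chaperones tested in rods, HSPA1A and HSPA1B rose, where 1.58% of all genes tested did. HSPA1A, the inducible HSP70, had 46.4, 23.8 and 17.9 CPM in transplanted rods, against 11.8, 5.42 and 7.74 CPM in cultured rods, with no overlap (log2 change 1.87 ± 0.25, edgeR adjusted p = 0.000943). HSPA1B had a log2 change of 1.45 ± 0.30 in rods (adjusted p = 0.0124), the other 10 tested chaperones did not pass, and the list had a median log2 change of 0.30 there. In cones 1 of 12 tested rose, HSPA1A (2.24 ± 0.45, adjusted p = 0.0231), against 0.0828% of all genes. In Müller glia 2 of 12 rose, HSPA1A (1.73 ± 0.44, adjusted p = 0.0433) and HSPA1B (1.66 ± 0.42, adjusted p = 0.0396), against 0.224% of all genes, and none of 9 tested passed in amacrine cells. The coding sequences of HSPA1A and HSPA1B are nearly identical, so the split of counts between them is uncertain. Both groups went through the same dissociation per the labels, and its part in these levels was not tested.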

How the data were processed

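Single-cell RNA sequencing libraries (10x 3′ v3.1, per the labels) came from 3 transplanted and 3 cultured samples. The files hold counts of UMIs per gene and barcode, not normalized, which the authors deposited after processing with Cell Ranger 6.0.2 for Set 1 and 7.1.0 for Sets 2 and 3, per the file headers, on GRCh38, per the submitters' processing notes. Both samples of a Set share a version, and whether intronic reads were counted is not given in the sources used here. The median UMI share of genes named by a clone number was 0.78% and 0.72% in transplanted and cultured rods of Set 1. It was 2.33% and 2.29% in Set 2 and 2.79% and 4.12% in Set 3. CPM levels, and overlaps between samples of different Sets, may thus differ with the version, which was not tested. The genes and the companion lists were chosen with earlier results of these data known.

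Cells with at least 1000 UMIs, 500 genes and at most 20% mitochondrial UMIs were kept. Cells meeting 2 or more class rules were left out as possible doublets, no doublet caller was run, and counts were summed per sample and class where both samples of a Set had at least 20 cells. Pairs of libraries shared 0 to 62 barcodes. The main test was edgeR 4.0.16 (R 4.3.3; filterByExpr, TMM, robust quasi-likelihood fit) on these sums with the Set as a block, and p-values were adjusted by Benjamini-Hochberg over all genes kept, at 0.05. The pairing comes from the shared organoid batch of each Set. Deviations from the group means of same-numbered samples correlated at 0.921, 0.534 and 0.763 in rods and 0.755, 0.073 and 0.352 in Müller glia. Differently numbered pairs reached 0.586 in rods and 0.278 in Müller glia, above the values of Set 2, so the pairing rests on the shared batch and not on these values. Class differences were contrasts of 1 fit with sample, class by Set and class by treatment terms. The labels name separate experiments and a single line, so p-values concern experiments of that line only. With 2 or 3 Sets per class, the spread used for a gene was borrowed in part from other genes. The class contrasts use a spread pooled over the 4 classes of the same libraries. The test was also run on simulated counts with 1 dispersion for all genes and the same change in each Set. That check does not cover responses that vary between Sets.

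Fold changes are from the fit. The SE of a log2 change or difference was computed from that value and the F statistic of its test, and was not estimated separately. The median log2 ratio of CPM over all genes was -0.13 in rods and -0.17 in Müller glia, against -0.04 and 0.00 in the fit. CPM ratios thus tend to lie below the fitted changes, which understates rises and overstates falls. Intervals are exact binomial ones and cover counting error only. The text names all 41 members, with values per sample for those called and for FOS, EGR1 and JUN, and up to 4 companions per list and class by smallest adjusted p. Further members and settings in the text were chosen after their values were seen. Alternatives were DESeq2 1.42.0, other scaling, gene and cell filters, class rules and left-out Sets, and, chosen after seeing the data, a limit of 5% mitochondrial UMIs and leaving out cells with 10 GADD45B UMIs. Promoter windows are from RefSeq and gene positions from GENCODE v29. Tables and figures used Python 3.11.15, NumPy 2.4.6, pandas 2.3.3, SciPy 1.17.1 and matplotlib 3.10.9.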

Additional observations from a re-analysis of the deposited data

Results flagged for a closer look

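The members in this section had a response that differed between classes by a test of the difference itself, the edgeR contrast of the transplanted-minus-cultured log2 change, adjusted over 17175 genes within each pair of classes. None of these differences passed when cells meeting 2 class rules were kept, when the block was dropped or when the class by Set terms were dropped.

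In rods minus Müller glia the difference was -1.68 for CCN1 (adjusted p = 5.6e-05), with a log2 change of -1.16 in rods and 0.43 in Müller glia. For CCN2 it was -1.82 (adjusted p = 0.00311), with -1.10 in rods and 0.48 in Müller glia. For HBEGF, a ligand of the EGF receptor, it was -2.71 (adjusted p = 0.000147), and for IER3 it was -1.70 (adjusted p = 0.000352). DUSP6 gave -2.02 (adjusted p = 0.000972), FOSL1 gave -2.63 (adjusted p = 0.0165) and GADD45B gave -1.04 (adjusted p = 0.0158). Fitted by class, FOSL1 fell in both, by -2.01 in rods and -0.85 in Müller glia. HBEGF had -0.74 in rods and 0.86 in Müller glia. For both, these lie closer together than the difference from the joint fit. Transplanted rods of Sets 1, 2 and 3 held only 2, 2 and 39 UMIs of FOSL1 and 14, 0 and 118 of HBEGF. ZFP36L1 gave -1.75, the smallest adjusted p of the members (4.1e-07), and differed under 15 of 18 settings. BTG2 gave 1.36 (adjusted p = 9.1e-05) and DUSP5 gave 1.19 (adjusted p = 0.0261), both with the higher response in rods, and DUSP5 differed under 6 of 18 settings.

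In cones minus Müller glia the difference was -1.84 for CCN1 (adjusted p = 0.00169) and -1.34 for ZFP36L1 (adjusted p = 0.0198). In cones minus amacrine cells it was 2.77 for SGK1 (adjusted p = 0.0141), a kinase induced by osmotic stress and steroids, with 0.76 in cones and -1.38 in amacrine cells. In Müller glia minus amacrine cells it was -1.56 for EGR1 (adjusted p = 0.00873), with -0.18 in Müller glia and 1.52 in amacrine cells.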

How the results depend on the processing

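In rods 10 members were called. The pairing matters most: with no replicate block 0 were called there, 0 in Müller glia (2 with the block), 0 differences between classes (14 with it), and 0 in cones and amacrine cells as with it. With each Set left out in turn, 4 to 19 members were called in rods, 0 to 1 in Müller glia and 8 to 9 differences, while leaving out a Set used in cones or amacrine cells left 1 Set and could not be fitted. The other settings called 7 to 12 members in rods. In cones, 0 members were called by the main test, 3 by DESeq2, 4 with RLE size factors, 1 with no filter on low counts, 3 with the stricter cell filter, 1 with cells of 2 rules kept, 2 without the deepest 5% of cells, 7 with equal cells, 4 without mitochondrial and ribosomal protein genes, 7 with the host filter, 4 with at least 10 cells and 7 with at most 5% mitochondrial UMIs. In Müller glia, DESeq2, the stricter filter and equal cells gave 0, no filter on low counts, the host filter and the 5% mitochondrial limit gave 1, and keeping cells of 2 rules gave 7. In amacrine cells the stricter filter gave 1 and keeping cells of 2 rules gave 7, and raised thresholds left too few Sets to fit, as did leaving out cells with ONECUT UMIs. Differences between classes numbered 2 with DESeq2, 3 with equal cells, 0 with cells of 2 rules kept and 0 with no class by Set terms. With cells of 2 rules kept, the sign changed for CCN1 in rods (0.67), IER3 in rods (1.55) and DUSP5 in Müller glia (1.02), each called under either setting. Values called under neither setting changed sign as well. Among them in rods were CCN2 (-1.10 to 0.78), HBEGF (-0.74 to 0.41) and DUSP6 (-0.84 to 0.26). The causes were not tested, beyond the smaller number of cells or Sets in a setting. Of 1657 single values uncalled under both settings, 81 had the other sign. Depth limits the low members most: under 10 CPM a sample of a thin class holds a few UMIs.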

Other observations

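The kept cells that met no class rule, 2873, 435 and 2727 in transplanted Sets 1, 2 and 3 and 7438, 4587 and 1171 in cultured Sets 1, 2 and 3, were in no comparison, and their makeup was not examined. JUN stood at 765, 575 and 641 CPM in these cells of the transplanted samples, against 337, 389 and 280 CPM in those of the cultured samples, higher in each Set. IER2 stood at 604, 293 and 924 CPM in the transplanted samples, against 499, 281 and 357 CPM in the cultured samples. FOS did not share 1 direction, at 1307, 251 and 338 CPM in the transplanted samples and 779, 281 and 270 CPM in the cultured samples. EGR1 was nearly equal in Set 1 and lower in Sets 2 and 3, at 266, 87.4 and 154 CPM in the transplanted samples. The cultured samples had 268, 120 and 227 CPM.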
